A study of Mus musculus with 21 samples.

Results

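The genes described here are 41 genes of myelin and of the oligodendrocytes that make it, taken by gene symbol from a list of names. They were looked up in the deposited table of read counts in the mouse hypothalamus. The list was chosen with earlier results of these data known, so its counts and medians below describe the members and are no independent test. All 41 symbols were found among the 21654 genes listed. All 41 also averaged at least 50 reads over the 21 libraries, the minimum used here for testing, and so belong to the 12768 genes tested. Dbndd2 was listed under a second identifier as well, with 10 reads in all spread over 2 libraries, and that entry was not used.

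The study fed male C57/BL6 mice (C57/B6J in the growth notes), acquired at an age of 12 to 14 weeks, either regular chow (RC) or a high-fat diet (HFD), and then kept the diet or switched it. The tissue was punched from the circumventricular hypothalamus in the middle of the light phase (6 h after lights on, ZT6), after 3 h in which unfamiliar objects had kept all mice awake. Each library was made from polyA RNA of punches from 2 mice of the same condition, so a library is a pool and the spread between mice inside it is not seen. Regular chow throughout (RC NoDS, for no diet switch) had 5 libraries, chow followed by acute high-fat diet (RC → HFD) had 6, high-fat diet followed by acute chow (HFD → RC) had 5, and high-fat diet throughout (HFD NoDS) had 5. Libraries are named below by group and by the replicate number of their label.

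Oligodendrocytes wrap axons in myelin, a stack of tightly packed membrane that speeds conduction and is unusually rich in galactolipids and in a small number of proteins such as myelin basic protein. Their precursors persist in the adult brain, divide, and can mature into new myelinating cells under control of transcription factors such as Olig2, Sox10 and the myelin regulatory factor, listed here as Gm98. The hypothalamus holds myelinated tracts beside nuclei poor in myelin, among them the fornix and the optic tract near the ventral surface.

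The authors deposited whole read counts that they had re-sampled at random to a common depth, and these summed to between 16380781 and 16390598 per library. A count therefore compares directly between libraries, and CPM is a gene's reads for each 1000000 reads of the library, after a small scaling for composition by the trimmed mean of M-values (TMM), whose factors ran from 0.982 to 1.02. Between genes, levels are compared only per length, as CPM per 1000 exon bases (CPM per kb). On that scale Mbp was the most abundant member at a mean level of 228 CPM per kb over the 21 libraries, followed by Plekhb1 at 113, Cnp at 103, Qdpr at 98.4 and Olig1 at 81.0 CPM per kb. At the other end lay Gal3st1 at 4.67, Anln at 3.31 and Aspa at 0.841 CPM per kb. On the genome, 14 of the 41 members overlap another annotated gene, and reads in the shared stretch could not be assigned here to either gene.

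The members went up and down together from library to library, and the libraries of a group differed widely. Reads on the 41 members made up, as mean and SD, 0.454 ± 0.0732% of an RC NoDS library (n = 5) and 0.502 ± 0.0600% of an RC → HFD library (n = 6). The same share was 0.742 ± 0.257% for HFD → RC (n = 5) and 0.626 ± 0.182% for HFD NoDS (n = 5). The single libraries ran from 0.383% to 0.551% in RC NoDS, 0.442% to 0.604% in RC → HFD, 0.435% to 1.11% in HFD → RC and 0.454% to 0.849% in HFD NoDS, so every pair of groups overlapped. In bulk tissue, fewer cells of a type and less RNA per cell cannot be told apart.

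Counting for each library the members above their own median over the 21 libraries shows how closely they moved. In HFD → RC, 40, 41 and 39 of 41 members were above their median in libraries 13, 14 and 15, against 4 in library 16 and 27 in library 17. In HFD NoDS, libraries 20 and 23 had 35 and 38 members above the median, and libraries 19, 21 and 24 had 24, 8 and 8. RC NoDS libraries 1, 2, 3, 5 and 6 had 1, 6, 15, 2 and 24. In RC → HFD the number ran from 7 to 33, with a median of 11, and the highest was library 12. HFD → RC library 14 was the highest of all 21 libraries for 31 of the members, while RC NoDS library 5 was the lowest for 14 and RC NoDS library 1 for 10.

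**Figure D1:**
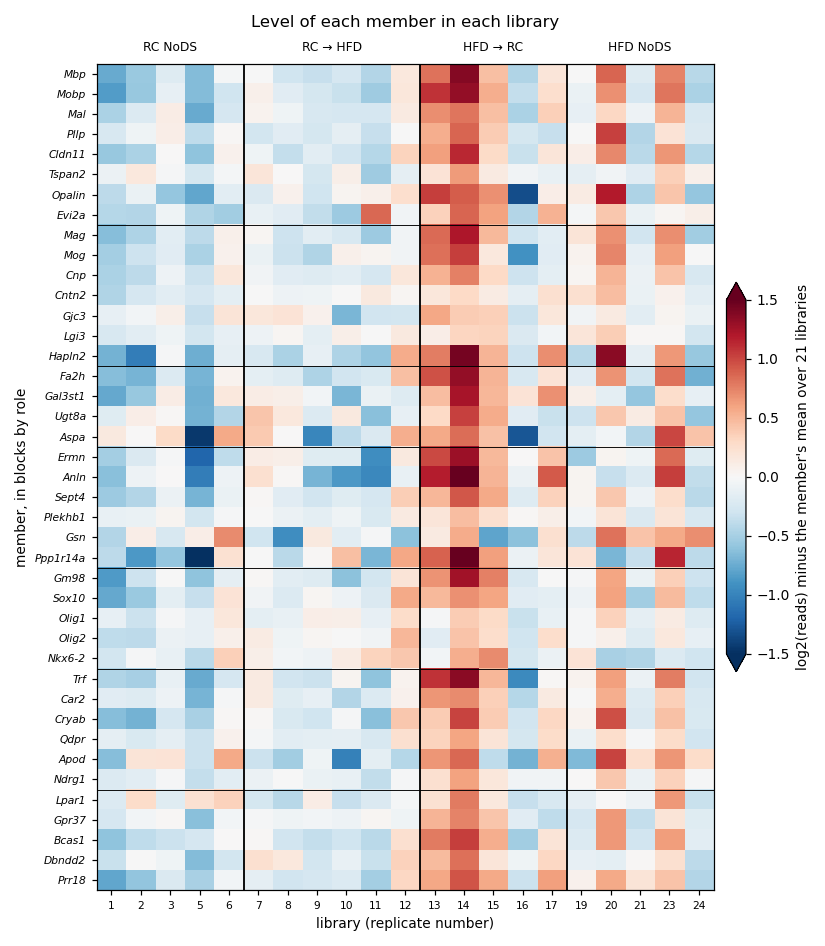
Level of the 41 members (vertical, grouped by role) in each of the 21 libraries (horizontal, grouped by diet), as log2 of reads minus the member's mean over all libraries (color). HFD → RC library 14 is high for nearly every member and RC NoDS libraries 1 and 5 are low for most, with HFD → RC library 16 standing apart from the rest of its group.

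Members varied more between libraries than most genes. The highest library exceeded the lowest by 1.57-fold for Lgi3 at the least and by 10.9-fold for Ppp1r14a at the most, with a median of 3.12-fold over the 41 members against 1.84-fold over all genes tested. Within groups, the median coefficient of variation (SD over mean) of the members was 19.4% in RC NoDS, 18.4% in RC → HFD, 32.5% in HFD → RC and 27.8% in HFD NoDS. Over all genes tested the same medians were 11.9%, 13%, 15% and 15.5%. In HFD → RC, 18 of 41 members lay above the 90th percentile of all genes' coefficients of variation, and 14 did in HFD NoDS, 9 in RC NoDS and 5 in RC → HFD.

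Differences between groups were tested by edgeR's quasi-likelihood test on all 12768 genes, and a gene is named as called where its Benjamini-Hochberg adjusted p was under 0.15. Fold changes are log2 of the second group over the first, with their SE. The 6 pairs of groups share libraries, so their values are set side by side and are not independent of each other.

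The widest difference lay between chow throughout and the return from high-fat diet to chow, a comparison of groups that ate the same diet at the end but not before. In RC NoDS v HFD → RC, 12 of 41 members were called, all 12 higher in HFD → RC, where 36 of all genes tested (0.282%) were called. At an unadjusted p under 0.05, 33 members passed against 8.10% of all genes. Of the members, 40 were higher in HFD → RC, with a median log2 fold change of 0.64, while 50% of all genes tested were higher and their median was -0.000115. DESeq2 called 147 of all genes tested and 20 members, the 12 and also Bcas1, Evi2a, Hapln2, Ndrg1, Plekhb1, Ppp1r14a, Qdpr and Trf. Limma-voom called 1 member, Sept4. The number of members called was 0 without RC NoDS library 1, 2 or 5 and 0 without HFD → RC library 13, 14 or 15. It was 24 without HFD NoDS library 20 and 29 without HFD → RC library 16, so single libraries decided it. The number of all genes called also moved over the fits that each left out 1 library, with its range in the last section. With library size alone as the scaling edgeR called 4 members. A covariate was also tried, chosen after the data were seen, that measures how many genes of low count (5 to 50 reads on average) have 0 reads in a library. That share was 1.12%, 3.63%, 2.34%, 7.22% and 1.80% in RC NoDS and 9.24%, 20.5%, 5.68%, 15.1% and 31.9% in HFD → RC. All HFD → RC libraries but number 15 lay above every RC NoDS library, so the covariate is partly confounded with diet. A call lost with it, here or below, cannot be assigned to either. With the log of that share in the fit, edgeR's quasi-likelihood test called 0 members, 25 passed an unadjusted p under 0.05, and the median log2 fold change was 0.63. The median stayed between 0.51 and 0.75 over the 29 other settings tried, which include each library left out. The counts did not overlap between the groups for 3 members, Cntn2, Gal3st1 and Ermn, all higher in HFD → RC, against 1.32% of all genes tested.

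**Figure D2:**
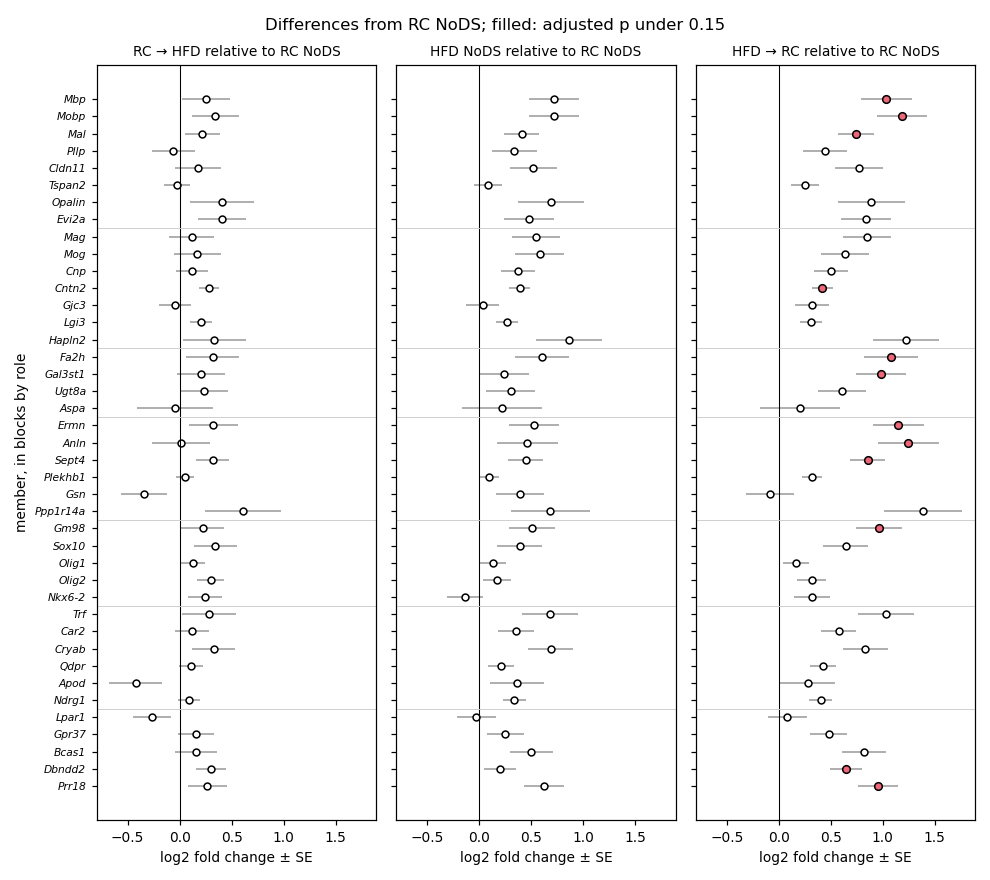
Log2 fold change (horizontal, with bars of 1 SE) of each of the 41 members (vertical, in blocks by role) in RC → HFD, HFD NoDS and HFD → RC relative to RC NoDS, 1 panel each, with filled points where edgeR's quasi-likelihood test gave an adjusted p under 0.15. In RC NoDS v HFD → RC, 40 of 41 members lie above 0 and 12 were called.

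Across all 4 groups at once, edgeR's quasi-likelihood test called 4 of 41 members, Anln, Mobp, Prr18 and Sept4, against 0.149% of all genes, and 31 passed an unadjusted p under 0.05 against 7.97%. DESeq2 called 10 members, of 133 genes in all, and limma-voom 0 members. No member was called without RC NoDS library 1, 2 or 5, without RC → HFD library 8, 9, 10 or 11, or without HFD → RC library 13, 14 or 15. A single member was called without RC → HFD library 7, HFD → RC library 17 or HFD NoDS library 21. Without HFD → RC library 16 the count was 21, and without HFD NoDS library 20 it was 9. The number of all genes called moved over such fits too, with its range in the last section.

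The comparison of the 2 diets held throughout, RC NoDS v HFD NoDS, gave 0 of 41 members called by edgeR's quasi-likelihood test against 0.0783% of all genes. At an unadjusted p under 0.05, 21 members passed, all higher in HFD NoDS, against 7.41% of all genes. DESeq2 called 1 member, Cntn2, of 17 genes in all, and limma-voom 0 members. Of the members, 39 were higher in HFD NoDS, with a median log2 fold change of 0.39 (0.28 to 0.49 over the other settings). The number at an unadjusted p under 0.05 was 9 without HFD NoDS library 23, 10 without HFD NoDS library 20, 11 without RC NoDS library 1 and 13 without RC NoDS library 5, and it was 13 by limma-voom and 4 by edgeR with the covariate described above. Without HFD NoDS library 24, edgeR called 1 member, Cntn2. In 0 members were the groups free of overlap, against 0.893% of all genes.

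Between the switched groups, which differ both in the earlier diet and in the diet eaten last, RC → HFD v HFD → RC gave 0 of 41 members called by edgeR's quasi-likelihood test against 0.00783% of all genes, and DESeq2 and limma-voom called 0 as well. All 41 members were higher in HFD → RC, with a median log2 fold change of 0.47 (0.32 to 0.62 over the other settings, in which 38 to 41 members were higher), and 28 passed an unadjusted p under 0.05 against 5.35% of all genes. Without HFD → RC library 16, edgeR called 13 members, and without HFD NoDS library 23 it called 1, Anln. The number of all genes called moved as well over the fits that each left out 1 library, with its range in the last section. Without HFD → RC library 14, 15 members passed an unadjusted p under 0.05. The groups did not overlap for 1 member, Gal3st1, against 0.486% of all genes.

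Acute high-fat diet after chow showed the smallest shift of the pairs with RC NoDS. In RC NoDS v RC → HFD, 0 of 41 members were called by edgeR's quasi-likelihood test, by DESeq2 or by limma-voom, against 0.0392% of all genes by edgeR. At an unadjusted p under 0.05, 2 members passed, Cntn2 and Olig2, against 6.51% of all genes. DESeq2's own filter on mean counts left 37 members without an adjusted p here, and with that filter off it called 0 members as well. The median log2 fold change was 0.21 (0.13 to 0.26 over the other settings, 0.13 without RC NoDS library 1 and 0.14 without RC NoDS library 5), and 34 members were higher in RC → HFD. That count of 2 was 1 without RC → HFD library 12, 7 without RC NoDS library 6, 5 without RC NoDS library 3, RC → HFD library 9 or HFD → RC library 16, and 4 without RC → HFD library 10 or 11, HFD → RC library 14 or HFD NoDS library 20. It was 5 without HFD NoDS library 24, 4 without a filter, and 11 with only the 2 groups in the fit, where 1173 of all genes passed. The groups did not overlap for 1 member, Cntn2, against 1.17% of all genes.

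In RC → HFD v HFD NoDS, which sets acute against lasting high-fat diet, 0 of 41 members were called by edgeR's quasi-likelihood test, by DESeq2 or by limma-voom, against 0.0157% of all genes by edgeR. At an unadjusted p under 0.05, 3 members were higher in HFD NoDS and 1 lower, against 7.49% of all genes. The median log2 fold change was 0.24, with 38 members higher in HFD NoDS. Without HFD NoDS library 23 the median was 0.09 with 31 higher, without HFD NoDS library 20 it was 0.12 with 30 higher, and over all other settings it ran from 0.09 to 0.30. The 4 members became 12 without HFD NoDS library 24, 10 without HFD NoDS library 21, 9 without RC → HFD library 12 or HFD → RC library 16, 7 without RC → HFD library 7 or HFD → RC library 14, and 2 without RC → HFD library 11 or HFD NoDS library 20. They were 8 without a filter and 12 with only the 2 groups in the fit. Without HFD NoDS library 19, edgeR called 1 member, Gsn. In 0 members were the groups free of overlap, against 0.744% of all genes.

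In HFD → RC v HFD NoDS, groups with the same earlier diet, 0 of 41 members were called by edgeR's quasi-likelihood test, by DESeq2 or by limma-voom, against 0.0705% of all genes by edgeR. At an unadjusted p under 0.05, 8 members passed, all lower in HFD NoDS, against 7.93% of all genes. The median log2 fold change was -0.25, and 3 members were higher in HFD NoDS. Without HFD → RC library 14 the number at an unadjusted p under 0.05 was 2, 12 members were higher in HFD NoDS and the median was -0.09. The median was -0.42 without HFD NoDS library 20 and -0.41 without HFD → RC library 16, and over all other settings it ran from -0.42 to -0.09. The number at an unadjusted p under 0.05 was 5 without HFD → RC library 15 or HFD NoDS library 24, 13 without HFD → RC library 17, 14 without HFD NoDS library 23, 19 without HFD NoDS library 20 and 21 without HFD → RC library 16. In 0 members were the groups free of overlap, against 1.02% of all genes.

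The interaction of earlier and current diet asks whether the effect of current diet differs with the diet before, as the log2 difference of HFD NoDS over HFD → RC minus that of RC → HFD over RC NoDS. EdgeR's quasi-likelihood test called 0 of 41 members against 0.0313% of all genes. DESeq2 called 1 member, Dbndd2, of 116 genes in all, and limma-voom 0 members. At an unadjusted p under 0.05, 15 members were lower and 1 higher, against 8.84% of all genes. The median was -0.47, with 4 members above 0, and it was -0.28 with 7 above 0 without HFD → RC library 14 (-0.62 to -0.28 over the other settings). The 16 became 9 without RC NoDS library 1, 10 without RC → HFD library 12 or HFD NoDS library 21 or 24, 6 without HFD → RC library 14, 27 without HFD → RC library 16 and 26 without HFD NoDS library 20. Without HFD NoDS library 20, edgeR called 1 member, Sept4.

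Of the 8 genes of compact myelin and the myelin membrane, 3 were called in RC NoDS v HFD → RC, and their median log2 fold change there was 0.81. Mbp (ENSMUSG00000041607, chromosome 18, 82644538 to 82755029 in mm9) encodes myelin basic protein, which holds the inner faces of the membrane together, and had 17025, 19605, 25202, 18439 and 28344 reads in RC NoDS, from 21187 to 32240 (median 23840) in RC → HFD, 50853, 74724, 39514, 21031 and 32574 in HFD → RC, and 28710, 52809, 25224, 48135 and 21537 in HFD NoDS. HFD → RC libraries 13 and 14 and HFD NoDS libraries 20 and 23 were the highest, and library 16 of HFD → RC lay inside the range of RC NoDS. Its mean was 21723 ± 4829 reads (SD, n = 5) in RC NoDS and 43739 ± 20426 (n = 5) in HFD → RC, with 4 of 5 HFD → RC libraries above every RC NoDS library. The log2 fold change was 1.04 ± 0.242 (SE), and edgeR's quasi-likelihood test gave an adjusted p of 0.115.

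Mobp (ENSMUSG00000032517, chromosome 9, 120058860 to 120090602), another small basic protein of compact myelin, followed the same order with 3991, 4785, 6525, 4537 and 5760 reads in RC NoDS, from 4910 to 8030 (median 6128) in RC → HFD, 15120, 17755, 10411, 5569 and 8480 in HFD → RC, and 6658, 11421, 5991, 12389 and 5120 in HFD NoDS. All HFD → RC libraries but number 16 stood above RC NoDS, and HFD NoDS libraries 20 and 23 were far above the other 3 of their group. Its log2 fold change in RC NoDS v HFD → RC was 1.19 ± 0.239 (adjusted p by edgeR 0.0614), and across all 4 groups its adjusted p by edgeR was 0.125. Mal (ENSMUSG00000027375, chromosome 2, 127458962 to 127482431) encodes a proteolipid of the lipid rafts in myelin and had 1678, 2016, 2519, 1381 and 1956 reads in RC NoDS, from 1951 to 2557 (median 2096) in RC → HFD, 3770, 4060, 3181, 1678 and 2987 in HFD → RC, and 2134, 2894, 2201, 3304 and 1964 in HFD NoDS. Again 4 of 5 HFD → RC libraries exceeded RC NoDS, and its log2 fold change was 0.74 ± 0.173 (adjusted p by edgeR 0.115). Mbp, Mobp and Mal each lost the call without RC NoDS library 1, 2 or 5 or HFD → RC library 13, 14 or 15, where their adjusted p by edgeR ran from 0.167 to 0.441. Over the 21 fits that each left out 1 library, edgeR's adjusted p ran from 0.00898 to 0.441 for Mbp, from 0.00318 to 0.334 for Mobp and from 0.00318 to 0.441 for Mal. Mobp was also called across all 4 groups, with a range from 0.00741 to 0.364 over those fits.

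The other 5 genes of this kind were not called by edgeR, and DESeq2 called 1 of them, Evi2a. Cldn11, the claudin of the tight junctions between myelin layers, ran from 726 to 2432 reads over the libraries with a log2 fold change of 0.77 in RC NoDS v HFD → RC. Opalin, a glycoprotein of oligodendrocyte membranes, ran from 71 to 410 reads (log2 fold change 0.89), and Evi2a, a small membrane protein, from 127 to 339 (0.84). Pllp, or plasmolipin, ran from 449 to 1244 reads with a log2 fold change of 0.45. The smallest difference belonged to Tspan2, a tetraspanin that appears early in myelination, at 0.25 and 759 to 1698 reads.

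**Figure D3:**
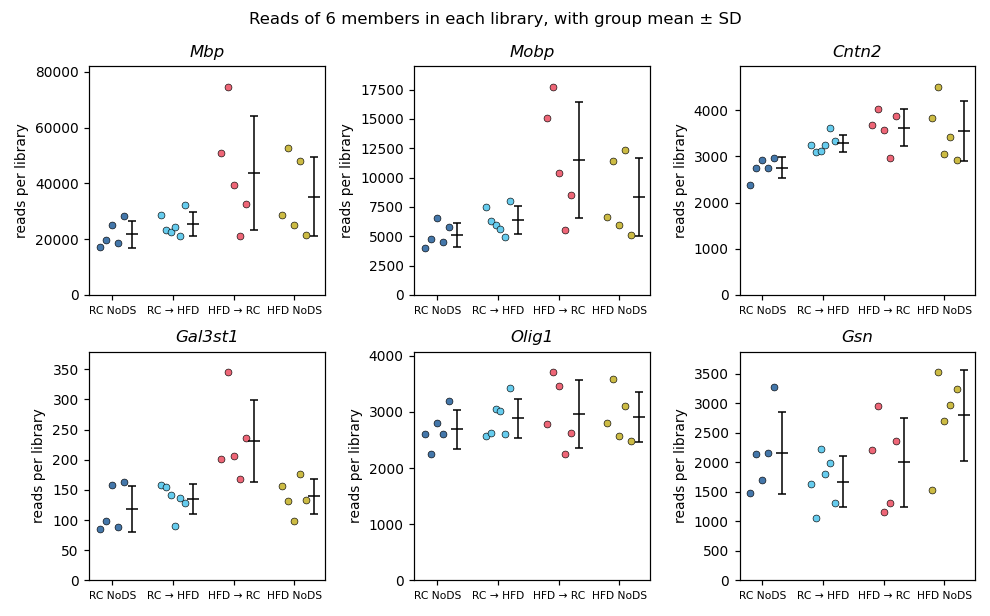
Reads per library (vertical, from 0) of Mbp, Mobp, Cntn2, Gal3st1, Olig1 and Gsn in each diet group (horizontal), with 1 point for each library and the group mean with its SD as bars. For Mbp, HFD → RC libraries run from 21031 to 74724 reads and RC NoDS libraries from 17025 to 28344.

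Of the 7 genes that act where myelin meets the axon and at its outer layers, Cntn2 alone was called by edgeR in RC NoDS v HFD → RC, DESeq2 called Hapln2 as well, and the median log2 fold change of the 7 was 0.50. Cntn2 (ENSMUSG00000053024, chromosome 1, 134406002 to 134439517) encodes an adhesion protein beside the node of Ranvier, made by neurons as well as by oligodendrocytes, and had 2381, 2742, 2925, 2752 and 2956 reads in RC NoDS, from 3099 to 3623 (median 3258) in RC → HFD, 3674, 4023, 3565, 2975 and 3869 in HFD → RC, and 3842, 4512, 3059, 3418 and 2931 in HFD NoDS. All 5 HFD → RC libraries and all 6 RC → HFD libraries were above every RC NoDS library, and HFD NoDS overlapped RC NoDS only through library 24. Its spread within HFD → RC, a coefficient of variation of 11.1%, was the smallest of all members, with 2751 ± 229 reads (SD, n = 5) in RC NoDS and 3621 ± 402 (n = 5) in HFD → RC, and its log2 fold change was 0.42 ± 0.0992 (adjusted p by edgeR 0.119). In RC NoDS v HFD NoDS its log2 fold change was 0.39 ± 0.0991 (adjusted p by edgeR 0.457), and in RC NoDS v RC → HFD 0.28 ± 0.0952 (adjusted p by edgeR 0.673). The call in RC NoDS v HFD → RC was lost without RC NoDS library 1, 2 or 5, HFD → RC library 13, 14, 15 or 17, or RC → HFD library 7, with an adjusted p by edgeR of up to 0.441. With the covariate described above its log2 fold change was 0.23 (adjusted p by edgeR 0.969).

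Cnp encodes a cyclic nucleotide phosphodiesterase of non-compact myelin and had 4259, 4512, 5638, 4756 and 6701 reads in RC NoDS, from 4991 to 6659 (median 5296) in RC → HFD, 8528, 10012, 7333, 4779 and 5383 in HFD → RC, and 6067, 8434, 5593, 8006 and 5031 in HFD NoDS. HFD → RC libraries 16 and 17 lay within RC NoDS and the other 3 above it, and the log2 fold change of 0.50 ± 0.162 did not pass (adjusted p by edgeR 0.298). Hapln2, which links the matrix around nodes of Ranvier, ran from 158 to 879 reads and had the largest log2 fold change of these genes, 1.22, with an adjusted p by edgeR of 0.163. Mag, a glycoprotein of the innermost wrap that binds the axon, ran from 1196 to 4312 reads (log2 fold change 0.85), and Mog, of the outermost surface, from 316 to 1218 (0.64). Gjc3, a connexin, ran from 243 to 580 reads (0.32), and Lgi3, a secreted protein, from 1505 to 2359 (0.31).

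Of the 4 genes of myelin lipid synthesis, 2 were called in RC NoDS v HFD → RC, and the median log2 fold change was 0.80. Fa2h (ENSMUSG00000033579, chromosome 8, 113869035 to 113917724) encodes the enzyme that hydroxylates fatty acids of myelin galactolipids and had 305, 293, 411, 294 and 493 reads in RC NoDS, from 346 to 652 (median 410) in RC → HFD, 920, 1182, 677, 404 and 550 in HFD → RC, and 421, 756, 392, 838 and 288 in HFD NoDS. HFD → RC library 16 lay inside the RC NoDS range and the other 4 above it, and library 12 stood out in RC → HFD. The log2 fold change was 1.08 ± 0.264 (adjusted p by edgeR 0.140). Gal3st1 (ENSMUSG00000049721, chromosome 11, 3883639 to 3899329) encodes the sulfotransferase that makes sulfatide and had 86, 99, 158, 89 and 163 reads in RC NoDS, from 91 to 158 (median 139.5) in RC → HFD, 202, 345, 206, 169 and 236 in HFD → RC, and 156, 132, 98, 176 and 134 in HFD NoDS. Every HFD → RC library was above every RC NoDS and every RC → HFD library, and HFD NoDS overlapped HFD → RC only through library 23. Its log2 fold change was 0.98 ± 0.237 in RC NoDS v HFD → RC (adjusted p by edgeR 0.138), 0.78 ± 0.224 in RC → HFD v HFD → RC (0.688) and -0.74 ± 0.236 in HFD → RC v HFD NoDS (0.481). Fa2h and Gal3st1 lost their calls without RC NoDS library 1, 2 or 5 or HFD → RC library 13, 14 or 15 (adjusted p by edgeR 0.249 to 0.452). Fa2h also lost it without RC → HFD library 7, 8, 9, 10 or 11, and Gal3st1 without RC → HFD library 7, 8 or 9 or HFD → RC library 17. Ugt8a, the galactosyltransferase that starts galactolipid synthesis, ran from 209 to 698 reads with a log2 fold change of 0.61, and Aspa, which frees acetate from N-acetylaspartate, from 26 to 142 reads with 0.21.

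Of the 6 genes of the cytoskeleton and membrane traffic, 3 were called in RC NoDS v HFD → RC, with a median log2 fold change of 1.00 over the 6. Ermn (ENSMUSG00000026830, chromosome 2, 57897524 to 57905275) encodes ermin, an actin-binding protein of mature oligodendrocytes, and had 291, 358, 411, 182 and 318 reads in RC NoDS, from 218 to 461 (median 403) in RC → HFD, 828, 1013, 583, 416 and 559 in HFD → RC, and 286, 426, 396, 746 and 366 in HFD NoDS. Every HFD → RC library exceeded every RC NoDS library, although library 16 did so by 416 reads against 411, and the log2 fold change was 1.15 ± 0.244 (adjusted p by edgeR 0.0927). Anln (ENSMUSG00000036777, chromosome 9, 22135658 to 22193650) encodes anillin, a scaffold that binds actin and septins, and had 167, 246, 260, 126 and 245 reads in RC NoDS, from 132 to 306 (median 199) in RC → HFD, 586, 750, 367, 244 and 489 in HFD → RC, and 266, 204, 224, 529 and 201 in HFD NoDS. HFD NoDS library 23 was far above the other 4 of its group, and HFD → RC library 16 lay within RC NoDS. Its log2 fold change was 1.25 ± 0.291 in RC NoDS v HFD → RC (adjusted p by edgeR 0.115) and 1.24 ± 0.275 in RC → HFD v HFD → RC (0.463), and across all 4 groups its adjusted p by edgeR was 0.131. Sept4 (ENSMUSG00000020486, chromosome 11, 87382405 to 87404041) encodes a septin and had 1322, 1417, 1806, 1190 and 1793 reads in RC NoDS, from 1576 to 2492 (median 1706) in RC → HFD, 2729, 3663, 2847, 1689 and 2456 in HFD → RC, and 1988, 2547, 1824, 2312 and 1453 in HFD NoDS. The other 4 HFD → RC libraries were above RC NoDS while library 16 was inside it, and the log2 fold change was 0.86 ± 0.166 (adjusted p by edgeR 0.0614, and 0.127 across all 4 groups). Ermn, Anln and Sept4 lost their calls without RC NoDS library 1, 2 or 5 or HFD → RC library 13, 14 or 15, with an adjusted p by edgeR from 0.167 to 0.441 there. For the calls across all 4 groups, edgeR's adjusted p ran from 0.0191 to 0.393 for Anln and from 0.00923 to 0.386 for Sept4 over the fits that each left out 1 library.

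Plekhb1 encodes a membrane protein with a pleckstrin homology domain and had 5989, 6056, 6660, 5340 and 6391 reads in RC NoDS, from 5513 to 7138 (median 6129) in RC → HFD, 7318, 8956, 7651, 6539 and 6886 in HFD → RC, and 6290, 7432, 5574, 7388 and 5475 in HFD NoDS. HFD → RC library 14 was the highest, the groups overlapped, and the log2 fold change was 0.32 ± 0.0931 (adjusted p by edgeR 0.206). Gsn encodes gelsolin, which severs actin filaments, and had 1479, 2145, 1705, 2156 and 3272 reads in RC NoDS, from 1052 to 2228 (median 1714) in RC → HFD, 2210, 2948, 1158, 1309 and 2363 in HFD → RC, and 1532, 3521, 2692, 2974 and 3246 in HFD NoDS. Unlike most members it was not higher in HFD → RC than in RC NoDS (log2 fold change -0.08 ± 0.234), and its largest difference between a pair of groups was RC → HFD v HFD NoDS, at 0.74 ± 0.223 with an adjusted p by edgeR of 0.477. In that comparison 4 of 5 HFD NoDS libraries were above every RC → HFD library, and library 19 was not. Without library 19 of HFD NoDS, Gsn was called, and edgeR's adjusted p ran from 0.146 to 0.769 over the fits that each left out 1 library. Ppp1r14a, an inhibitor of myosin phosphatase, had few reads, 33 to 360, and the largest log2 fold change of any member in RC NoDS v HFD → RC, 1.39 ± 0.379, with an adjusted p by edgeR of 0.170.

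Of the 5 transcription factors, 1 was called in RC NoDS v HFD → RC, and their median log2 fold change was 0.32. Gm98 (ENSMUSG00000036098, chromosome 19, 10282762 to 10315238) encodes the myelin regulatory factor, which turns on myelin genes, and had 403, 586, 723, 481 and 664 reads in RC NoDS, from 474 to 834 (median 643) in RC → HFD, 1162, 1745, 1227, 617 and 724 in HFD → RC, and 718, 1093, 680, 929 and 585 in HFD NoDS. HFD → RC library 14 was the highest, libraries 13, 15 and 17 also lay above RC NoDS and library 16 inside it, and the log2 fold change was 0.97 ± 0.218 (adjusted p by edgeR 0.115). That call was lost without RC NoDS library 1, 2 or 5 or HFD → RC library 13, 14 or 15, with an adjusted p by edgeR from 0.237 to 0.441. Olig1, a factor of the whole lineage from precursor to mature cell, had 2601, 2260, 2802, 2604 and 3200 reads in RC NoDS, from 2571 to 3428 (median 2828) in RC → HFD, 2794, 3706, 3471, 2246 and 2625 in HFD → RC, and 2797, 3590, 2576, 3099 and 2484 in HFD NoDS. Its groups overlapped, and its log2 fold change was 0.17 ± 0.123 (adjusted p by edgeR 0.767). Olig2, of the same lineage, had 529, 525, 645, 634 and 723 reads in RC NoDS, from 658 to 974 (median 694) in RC → HFD, 613, 924, 823, 559 and 823 in HFD → RC, and 678, 724, 601, 766 and 634 in HFD NoDS. RC → HFD library 12 was the highest of all, and in RC NoDS v RC → HFD the log2 fold change was 0.30 ± 0.131 (adjusted p by edgeR 0.707). Sox10, which acts on myelin genes together with the myelin regulatory factor, ran from 420 to 1156 reads (0.64 in RC NoDS v HFD → RC), and the homeobox factor Nkx6-2 from 542 to 1240 (0.32).

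None of the 6 genes of transport, metabolism and stress was called by edgeR's quasi-likelihood test in RC NoDS v HFD → RC, 5 passed an unadjusted p under 0.05, and DESeq2 called 3 (Ndrg1, Qdpr and Trf) and limma-voom 0. Their median log2 fold change was 0.50. Qdpr encodes the reductase that recycles tetrahydrobiopterin and had 2744, 2573, 2750, 2412 and 3149 reads in RC NoDS, from 2552 to 3582 (median 2742) in RC → HFD, 3825, 4555, 3451, 2515 and 3659 in HFD → RC, and 2815, 3616, 2981, 3648 and 2472 in HFD NoDS. HFD → RC libraries 13, 14, 15 and 17 were above RC NoDS, and the log2 fold change of 0.43 ± 0.122 missed the threshold (adjusted p by edgeR 0.206). Ndrg1 encodes a protein of myelinating glia whose loss damages peripheral myelin and had 1987, 2037, 2258, 1779 and 2050 reads in RC NoDS, from 1770 to 2275 (median 2138) in RC → HFD, 2690, 3472, 2573, 2205 and 2205 in HFD → RC, and 2297, 3015, 2139, 2903 and 2263 in HFD NoDS. HFD → RC library 14 was the highest and 3 of its group lay above RC NoDS, and the log2 fold change was 0.40 ± 0.112 (adjusted p by edgeR 0.181). Apod encodes apolipoprotein D, a lipid carrier, and had 1460, 2608, 2629, 1831 and 3375 reads in RC NoDS, from 1128 to 2186 (median 1756) in RC → HFD, 3604, 4127, 1749, 1400 and 3310 in HFD → RC, and 1436, 4619, 2711, 3614 and 2753 in HFD NoDS. RC → HFD was the lowest group and every pair of groups overlapped, and its log2 fold change was 0.79 ± 0.251 in RC → HFD v HFD NoDS (adjusted p by edgeR 0.490) against 0.28 ± 0.262 in RC NoDS v HFD → RC. Trf, transferrin, ran from 269 to 1330 reads (1.03). Car2, a carbonic anhydrase, ran from 1033 to 2731 reads (0.58), and Cryab, a small heat shock chaperone, from 841 to 2791 (0.83).

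Of the last 5 genes, receptors and proteins of other kinds, 2 were called in RC NoDS v HFD → RC, with a median log2 fold change of 0.65. Dbndd2 (ENSMUSG00000017734, chromosome 2, 164311606 to 164318819) encodes a protein with a dysbindin domain and had 702, 887, 846, 565 and 736 reads in RC NoDS, from 704 to 1123 (median 906) in RC → HFD, 1228, 1568, 1003, 848 and 1099 in HFD → RC, and 815, 799, 898, 1050 and 678 in HFD NoDS. HFD → RC library 16 alone of its group lay within RC NoDS, and HFD NoDS overlapped RC NoDS, with log2 fold changes of 0.65 ± 0.153 in RC NoDS v HFD → RC (adjusted p by edgeR 0.120) and -0.45 ± 0.153 in HFD → RC v HFD NoDS (0.519). Prr18 (ENSMUSG00000055945, chromosome 17, 8533271 to 8536977), a proline-rich protein found in oligodendrocytes, had 429, 489, 631, 526 and 713 reads in RC NoDS, from 515 to 910 (median 627) in RC → HFD, 1100, 1420, 1091, 588 and 1124 in HFD → RC, and 771, 1091, 838, 988 and 543 in HFD NoDS. HFD → RC libraries 13, 14, 15 and 17 had 1091 reads or more, above every RC NoDS library, and library 16 had 588. Its log2 fold change was 0.96 ± 0.192 in RC NoDS v HFD → RC (adjusted p by edgeR 0.0614), and across all 4 groups its adjusted p of 0.123 by edgeR was the smallest of the members. Over the fits that each left out 1 library the latter ran from 0.00494 to 0.310. Dbndd2 and Prr18 lost their calls in RC NoDS v HFD → RC without RC NoDS library 1, 2 or 5 or HFD → RC library 13, 14 or 15, with an adjusted p by edgeR from 0.169 to 0.441. Bcas1, a marker of oligodendrocytes that are starting to myelinate, had 1208, 1413, 1468, 1540 and 1835 reads in RC NoDS, from 1382 to 2164 (median 1500) in RC → HFD, 3148, 3768, 2678, 1275 and 2096 in HFD → RC, and 1585, 2876, 1497, 2837 and 1643 in HFD NoDS. HFD → RC library 16 lay inside the RC NoDS range and the other 4 above it, and its log2 fold change was 0.82 ± 0.211 (adjusted p by edgeR 0.159). Lpar1, a receptor for lysophosphatidic acid, ran from 359 to 819 reads (0.08), and Gpr37, an orphan receptor of oligodendrocytes, from 648 to 1664 (0.48).

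Genes outside the 41 were read beside them as lists written from general knowledge, and a list is said to be led by the gene with the most reads, not divided by length. In RC NoDS v HFD → RC, edgeR called 0.282% of all genes tested, and 8.10% passed an unadjusted p under 0.05. For the other comparisons the shares over all genes are those given above. Of 24 further genes of mature oligodendrocytes, 23 were in the table and 20 were tested, and 1 was called in RC NoDS v HFD → RC, Tubb4, with 19 of 20 higher in HFD → RC and a median log2 fold change of 0.53. DESeq2 called 4 of the list and limma-voom 0. The number was 0 without RC NoDS library 1, 2 or 5 or HFD → RC library 13, 14 or 15, 2 without RC → HFD library 12 or HFD NoDS library 23, 3 without HFD → RC library 17, 4 without RC NoDS library 6 or HFD NoDS library 20 and 7 without HFD → RC library 16. The list summed to 1358, 1449, 1555, 1564 and 1618 CPM in RC NoDS, from 1567 to 1714 (median 1651) in RC → HFD, 1977, 2204, 1793, 1581 and 1737 in HFD → RC, and 1751, 1986, 1609.5, 1814 and 1523 in HFD NoDS. A large part of that sum was Tubb4, a tubulin that led the list, at 593 of 1509 CPM in the mean of RC NoDS and 743 of 1859 CPM in HFD → RC. Tubb4 had 9203, 9101, 10505, 9747 and 10386 reads in RC NoDS, from 10369 to 11900 (median 10709) in RC → HFD, 12593, 13894, 11921, 10626 and 11231 in HFD → RC, and 11379, 12502, 10100, 11522 and 9930 in HFD NoDS. For Tubb4, every HFD → RC library was above every RC NoDS library, where 1.32% of all genes tested did not overlap. Its highest library was HFD → RC library 14, and its log2 fold change was 0.33. Its adjusted p by edgeR was 0.115 and ran from 0.0191 to 0.441 over the fits that each left out 1 library. With the covariate described above it was 0.928, and edgeR called no gene of this or any other list in that comparison. Oligodendrocyte precursor genes gave 0 of 9 called by edgeR's quasi-likelihood test in RC NoDS v HFD → RC, 1 by DESeq2 (Gpr17), 0 by limma-voom, 3 at an unadjusted p under 0.05, and a median log2 fold change of 0.09. EdgeR called 1 of them without HFD → RC library 16 or 17. Their sum, led by Gpr17, was 356 ± 32.7 CPM in RC NoDS, 361 ± 16.1 CPM in RC → HFD, 397 ± 14.5 CPM in HFD → RC and 372 ± 14.1 CPM in HFD NoDS (SD), with n as given above.

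Of 3 Schwann cell genes, 2 were in the table and 1, Pmp22, was tested and not called by edgeR's quasi-likelihood test, by DESeq2 or by limma-voom, with 0 at an unadjusted p under 0.05 in RC NoDS v HFD → RC. The list summed to 24.1 ± 6.01 CPM in RC NoDS, 21.9 ± 3.10 CPM in RC → HFD, 31.1 ± 9.53 CPM in HFD → RC and 30.3 ± 7.84 CPM in HFD NoDS, with HFD → RC library 14 (44.0 CPM) and HFD NoDS library 23 (41.2 CPM) the highest. Large axons, which myelin wraps, were represented by 5 genes led by Kif5a. Of the 5, 3 were called in RC NoDS v HFD → RC, all higher, namely Kif5a, Nefh and Nefm, against 0.282% of all genes. The median log2 fold change of the 5 was 0.36. DESeq2 called 3 and limma-voom 1. The number was 0 without RC NoDS library 1, 2 or 5 or HFD → RC library 13, 14 or 15, and 1 without RC NoDS library 3, RC → HFD library 7 or 9 or HFD → RC library 17. Kif5a was called by edgeR in RC NoDS v RC → HFD too (log2 fold change 0.41, adjusted p 0.121), where 0 members were, and that call was lost without RC NoDS library 1, 2 or 5, RC → HFD library 7, 8 or 12, HFD → RC library 14 or 17 or HFD NoDS library 19 or 21 (adjusted p up to 0.656). Across all 4 groups Kif5a was called by all 3 tools (adjusted p by edgeR 0.104), and edgeR's call was lost without RC NoDS library 1, 2 or 5, RC → HFD library 7, 8, 9 or 11, or HFD → RC library 13, 14 or 17 (up to 0.428). With the covariate, edgeR's adjusted p of Kif5a was 0.563 in RC NoDS v HFD → RC and 0.575 across all 4 groups, its call in RC NoDS v RC → HFD was lost too, and the adjusted p of Nefh and Nefm in RC NoDS v HFD → RC was 0.969. The list summed to 1602, 1858, 2029.8, 1758 and 2053 CPM in RC NoDS, from 2269 to 2897 (median 2385) in RC → HFD, 2413, 2539.8, 2980.2, 2050.0 and 2593 in HFD → RC, and 2324, 2659.7, 2233, 2074 and 2083 in HFD NoDS. RC NoDS was low on this list and HFD → RC library 16 was the lowest of its group, at 2050 CPM. In the interaction of earlier and current diet, where the members' median was -0.47, the median of this list was -0.54 with 0 of 5 above 0. At an unadjusted p under 0.05, 4 of the 5 passed there, against 8.84% of all genes. EdgeR called 0 of them, DESeq2 3 and limma-voom 1. With 1 library left out edgeR called 0 to 4, and with the covariate 0. The part of large axons in the members' values was not tested.

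Of the remaining lists, only the neuropeptides held a gene called by edgeR, DESeq2 or limma-voom in RC NoDS v HFD → RC. Of all genes tested, 8.10% passed an unadjusted p under 0.05 in that comparison. Astrocyte genes, led by Aldoc, had 0 of 9 called by edgeR's quasi-likelihood test, 1 at an unadjusted p under 0.05, and summed to 3602 ± 196 CPM in RC NoDS, 3761 ± 107 CPM in RC → HFD, 3941 ± 135 CPM in HFD → RC and 3769 ± 319 CPM in HFD NoDS. Without HFD → RC library 16 or HFD NoDS library 20, edgeR called 1 of them. Within that sum 1 gene stood apart, Gfap, a filament protein of astrocytes, had 3341, 2891, 3903, 3645 and 4393 reads in RC NoDS, from 2282 to 3600 (median 3285) in RC → HFD, 5357, 8518, 3402, 2987 and 4057 in HFD → RC, and 6183, 8291, 4570, 8797 and 3807 in HFD NoDS. HFD NoDS libraries 23 and 20 and HFD → RC library 14, high for most members, were its highest, followed by HFD NoDS library 19 and HFD → RC library 13. Across all 4 groups edgeR called it (adjusted p 0.125), as did DESeq2 and not limma-voom, and edgeR's call was lost without RC NoDS library 1, 2 or 5, any 1 of the RC → HFD libraries, HFD → RC library 13 or 17, or HFD NoDS library 19, 20 or 23 (adjusted p up to 0.295) and with the covariate (0.488). The other 8 were not called across all 4 groups by edgeR. Microglia genes, led by Csf1r, had 0 of 8 called and 2 at an unadjusted p under 0.05, and summed to 341 ± 24.9 CPM in RC NoDS, 343 ± 19.4 CPM in RC → HFD, 380.3 ± 42.0 CPM in HFD → RC and 399 ± 36.0 CPM in HFD NoDS. Their highest sums lay in HFD → RC library 14 (445 CPM) and HFD NoDS libraries 23 (445 CPM) and 20 (427 CPM), which were high for most members too. Neuron genes, led by Eno2 and with 7 of 8 listed in the table, had 0 of 7 called and 3 at an unadjusted p under 0.05, and summed to 3325 ± 101 CPM in RC NoDS, 3730.0 ± 184 CPM in RC → HFD, 3683 ± 277 CPM in HFD → RC and 3584 ± 277 CPM in HFD NoDS. Endothelial genes, led by Flt1, had 0 of 6 called and 0 at an unadjusted p under 0.05, and summed to 152 ± 15.5 CPM in RC NoDS, 175 ± 6.65 CPM in RC → HFD, 171 ± 14.7 CPM in HFD → RC and 159.7 ± 8.51 CPM in HFD NoDS. The highest library was HFD NoDS 20 for the astrocyte sum and HFD → RC 15 for the neuron and endothelial sums. No gene of these 4 lists was at or near 0 in any group, and their part in the members' values was not tested.

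Ependymal and tanycyte genes, which line the ventricle beside the punched region and were led by Col23a1, had 0 of 5 called by edgeR's quasi-likelihood test and 1 at an unadjusted p under 0.05, with 3 of 5 higher in HFD → RC and a median log2 fold change of 0.19. Their sum, most of it Col23a1, was 386 ± 64.4 CPM in RC NoDS, 333 ± 48.8 CPM in RC → HFD, 339 ± 50.1 CPM in HFD → RC and 403 ± 24.6 CPM in HFD NoDS. Choroid plexus genes, led by Clic6, had 0 of 2 tested genes called and 1 at an unadjusted p under 0.05, and all 6 listed summed to 79.4 ± 4.82 CPM in RC NoDS, 78.7 ± 7.51 CPM in RC → HFD, 69.6 ± 9.42 CPM in HFD → RC and 71.3 ± 5.01 CPM in HFD NoDS. Erythrocyte genes, led by Hbb-b1, had 0 of 5 called and 0 at an unadjusted p under 0.05, and summed to 208, 273, 262, 228 and 203 CPM in RC NoDS, from 65.3 to 129.9 (median 115) in RC → HFD, 415, 146, 166, 41.4 and 216 in HFD → RC, and 97.6, 271, 94.5, 193 and 124 in HFD NoDS. HFD → RC library 16, low on the members, was also the lowest of all 21 libraries on this list, and library 13 was the highest. RC → HFD was low, and all 5 genes passed an unadjusted p under 0.05 in RC NoDS v RC → HFD (median log2 fold change -1.18) and in RC → HFD v HFD → RC (0.91). Of all genes, 6.51% and 5.35% passed in these comparisons. EdgeR's quasi-likelihood test, DESeq2 and limma-voom called 0 in both, and edgeR called 2 in both without HFD → RC library 16 and 1 in the former without HFD → RC library 13 or HFD NoDS library 20. Of 9 hypothalamic neuropeptide genes, led by Avp, 1 was called by all 3 tools in RC NoDS v HFD → RC, Trh (adjusted p by edgeR 0.343 with the covariate). The 9 summed to 2067 ± 559 CPM in RC NoDS, 2104 ± 462 CPM in RC → HFD, 1853 ± 620.5 CPM in HFD → RC and 2312 ± 719 CPM in HFD NoDS. Hcrt, a neuropeptide of the lateral hypothalamus beside the punched region, had 75, 70, 94, 28 and 105 reads in RC NoDS, from 58 to 355 in RC → HFD, 437, 256, 215, 87 and 368 in HFD → RC, and 93, 1051, 823, 187 and 234 in HFD NoDS. Of HFD → RC, library 16 alone lay inside the RC NoDS range, as for many members, while HFD NoDS library 21, low on most members, was high. In RC NoDS v HFD → RC its log2 fold change was 1.90 (adjusted p by edgeR 0.206), and edgeR called it without HFD → RC library 16 or HFD NoDS library 20. In RC NoDS v HFD NoDS edgeR called it (log2 fold change 2.71, adjusted p 0.0513), as did DESeq2 and not limma-voom, and edgeR's call was lost without RC NoDS library 1, 2 or 5 or HFD NoDS library 20 or 21 (up to 0.289) and with the covariate (1.00). Pmch, another gene of the neuropeptide list known from the lateral hypothalamus, had 928, 1757, 602, 411 and 273 reads in RC NoDS. In HFD → RC it had 1405, 535, 739, 1340 and 534, all inside the RC NoDS range, and library 16 was not the lowest. The paper states that punches too low in Agrp and Pomc relative to Hcrt were left out before sequencing. It reports Hcrt as similar across its groups, in its RNA-seq counts and in RT-qPCR of both the sequenced tissue and tissue that was not sequenced. Its tests were other than those used here. The part of these tissues, and of where the punch was taken, in the members' values was not tested.

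The promoters of the members were searched for a pair of motifs that Sox proteins, Sox10 among them, are known to bind, since the members were high in the same libraries. Of the 41 members, 28 matched the RefSeq promoter table (GRCm38.p6), with 42 windows of 250 bases before a start. The letters ACAAAG, on either strand, were in 12 of the 42 windows, belonging to 10 members, and in 16.5% of the 32851 windows of all genes (18.6% of 27025 genes). The letters ACAATG, on either strand, were in 7 of the 42, belonging to 6 members, and in 10.7% of all windows (12.2% of genes). Overlapping windows count 1 site again in Mag for ACAAAG and in Gal3st1 for ACAATG. Mobp held 6 matches to ACAAAG, all on the reverse strand, where they read CTTTGT. Sept4 held 2 to ACAAAG, 1 on each strand, in 1 of its windows, and Prr18 held 2 to ACAATG in 1 of its windows. Those windows are chr9:120149492-120149741 (Mobp), chr11:87580811-87581060 (Sept4) and chr17:8340156-8340405 (Prr18), all on the + strand. They are printed, with capitals marking each match to either motif, because they are the windows with more than 1 match among the members called across all 4 groups. A match says only that the letters are present, and binding was not measured.

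Mobp: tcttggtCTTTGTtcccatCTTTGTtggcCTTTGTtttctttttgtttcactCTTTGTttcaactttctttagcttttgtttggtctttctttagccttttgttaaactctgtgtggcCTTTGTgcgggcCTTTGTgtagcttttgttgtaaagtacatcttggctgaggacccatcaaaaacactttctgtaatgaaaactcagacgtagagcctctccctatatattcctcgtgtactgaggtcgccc
Sept4: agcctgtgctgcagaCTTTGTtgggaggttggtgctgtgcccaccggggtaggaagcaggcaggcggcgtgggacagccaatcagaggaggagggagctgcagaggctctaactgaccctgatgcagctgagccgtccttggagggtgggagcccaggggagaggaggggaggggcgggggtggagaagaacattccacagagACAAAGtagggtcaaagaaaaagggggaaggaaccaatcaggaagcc
Prr18: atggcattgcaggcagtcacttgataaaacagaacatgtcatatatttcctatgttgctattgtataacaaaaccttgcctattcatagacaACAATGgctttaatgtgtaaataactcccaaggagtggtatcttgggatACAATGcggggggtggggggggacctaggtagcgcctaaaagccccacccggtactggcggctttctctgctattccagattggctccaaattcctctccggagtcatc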

How the data were processed

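RNA-seq read counts of 21 mouse hypothalamus libraries were used as the authors deposited them, in whole counts per gene. According to the submitters' processing notes, libraries were prepared with the TruSeq stranded mRNA kit, and reads were merged with Picard 2.7.1 and aligned to mm9 with STAR 2.5.1b before re-sampling to a common depth. Whether counting used the strand is not stated in the sources read. Counts cover the error of sampling reads only.

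Genes averaging at least 50 reads were tested with edgeR 4.0.16 (TMM, quasi-likelihood F-test, R 4.3.3), with 1 mean for each of 4 diet groups, and p-values were adjusted over all 12768 genes (Benjamini-Hochberg) and read at a threshold of 0.15. SE is that of the log2 fold change, derived as its absolute value over the square root of the quasi-likelihood F. Alternatives were DESeq2 1.42.0, limma-voom (limma 3.58.1), a minimum of 5 reads or none, library size alone, DESeq2 size factors in edgeR, only the 2 groups compared, and each library left out in turn. DESeq2's own filter on mean counts left 11882 genes out of its adjustment in RC NoDS v RC → HFD and 1 in each other comparison, so its p-values were also adjusted over all genes. A covariate was added after the data were seen, namely the log of the share of 0 counts in each library among the 3116 genes averaging 5 to 50 reads. No 2 libraries had identical counts. Tables and figures were made with Python 3.11.15, numpy 2.4.6, pandas 2.3.3 and matplotlib 3.10.9, and log2 levels used a pseudocount of 0.5 CPM. Gene positions are mm9 from GENCODE.

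Some members are given library by library, with RC → HFD as a range and median. They are those called in a comparison, the most abundant and the smallest p in each role, and the smallest p in each comparison. The members and the lists of other cell types were chosen with earlier results of these data known, so their counts and medians describe them and no test was made of a list. The motifs and the printed sequences were chosen after the data were seen. The results of 2 genes of the planned lists are not reported here, and the lists are given without them.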

Additional observations from a re-analysis of the deposited data

Results flagged for a closer look

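For each of the 41 members, and for the share of reads on the members, each diet group was examined, 168 groups of values in all, and the highest and the lowest library were compared with the spread of the others by Dixon's criterion. Chance flags about 1 in 20 groups, which is 8.4 of 168, and 9 were found.

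Evi2a stood far above its group in RC NoDS library 3, with 177 reads against 129 to 138 in the others, and in RC → HFD library 11, with 336 reads against 127 to 178. In RC → HFD library 12, Hapln2 had 479 reads against 215 to 298, Fa2h 652 against 346 to 430, Sox10 1064 against 618 to 731, and Olig2 974 against 658 to 747, each far above the rest of the group. Ndrg1 was far below the others in RC → HFD library 11, with 1770 reads against 2120 to 2275. In HFD NoDS library 23, Anln had 529 reads against 201 to 266 in the others and Lpar1 753 against 378 to 482, both far above.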

How the results depend on the processing

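The members' median log2 fold change kept its sign in every comparison under all settings tried. Single members did change sign, 9 of 41 in HFD → RC v HFD NoDS without HFD → RC library 14 and 8 in RC → HFD v HFD NoDS without HFD NoDS library 20 at the most. The number of members called in RC NoDS v HFD → RC, 12, became 20 with DESeq2, 1 with limma-voom, 4 with library size alone and 0 with the share of 0 counts as a covariate, where 25 members passed an unadjusted p under 0.05. Across all 4 groups the 4 members called became 10 with DESeq2, 0 with limma-voom (26 at an unadjusted p under 0.05), 7 without a filter and 0 with the covariate (22). DESeq2 called 1 member in RC NoDS v HFD NoDS and 1 in the interaction, where edgeR called 0. Leaving out each library in turn gave 0 to 1 members called in RC NoDS v HFD NoDS, 0 to 13 in RC → HFD v HFD → RC, 0 to 29 in RC NoDS v HFD → RC, 0 to 1 in RC → HFD v HFD NoDS, 0 to 21 across all 4 groups and 0 to 1 in the interaction. The cause was not tested.

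Of all genes tested, DESeq2 called 17 in RC NoDS v HFD NoDS (edgeR 10), 5 in RC → HFD v HFD → RC (1), 96 in RC NoDS v RC → HFD (5; 15 with DESeq2's own filter off), 147 in RC NoDS v HFD → RC (36), 32 in RC → HFD v HFD NoDS (2), 44 in HFD → RC v HFD NoDS (9), 133 across all 4 groups (19) and 116 in the interaction (4). Limma-voom called 7 in RC NoDS v HFD → RC and 15 in the interaction. With the minimum of 5 reads, 2 genes were called in RC → HFD v HFD → RC, 1 in RC → HFD v HFD NoDS, 4 in HFD → RC v HFD NoDS and 0 in the interaction by edgeR, where 1296 genes passed an unadjusted p under 0.05 (at the minimum of 50 reads, DESeq2 called 116 and limma-voom 15). Without a filter the numbers were 3 in RC → HFD v HFD → RC, 5 in RC → HFD v HFD NoDS, 5 in HFD → RC v HFD NoDS and 31 across all 4 groups. With library size alone they were 10 in RC NoDS v HFD → RC and 2 in the interaction, and with DESeq2 size factors in edgeR 0 in the interaction, with 1128 at an unadjusted p under 0.05. With only the 2 groups compared they were 24 in RC NoDS v RC → HFD, 4 in RC → HFD v HFD NoDS and 1 in HFD → RC v HFD NoDS.

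The share of 0 counts, from 1.12% in RC NoDS library 1 to 32.9% in HFD NoDS library 20, was chosen as a covariate after the data were seen. This covariate is partly confounded with diet. With it, edgeR called 2 genes in RC NoDS v HFD NoDS, 3 in RC NoDS v RC → HFD, 0 in RC NoDS v HFD → RC (651 at an unadjusted p under 0.05), 1 in RC → HFD v HFD NoDS, 14 in HFD → RC v HFD NoDS, 8 across all 4 groups and 8 in the interaction. Leaving out each library in turn gave 5 to 14 genes called in RC NoDS v HFD NoDS, 1 to 41 in RC → HFD v HFD → RC, 4 to 11 in RC NoDS v RC → HFD, 1 to 205 in RC NoDS v HFD → RC, 1 to 31 in RC → HFD v HFD NoDS, 1 to 13 in HFD → RC v HFD NoDS, 9 to 80 across all 4 groups and 0 to 124 in the interaction. A tally of part of the named members' tests under other settings had 514 that kept direction and side of the threshold. In it 118 kept direction and lost the call, all in RC NoDS v HFD → RC, and 6 gained one. It leaves out the tests across all 4 groups, where edgeR called Mobp in 10, Anln in 8, Sept4 in 7 and Prr18 in 7 of 21 fits that each left out 1 library. It also leaves out calls gained in RC NoDS v HFD → RC, such as Bcas1 in 7 of those fits. Each library is a pool of 2 mice, so differences between mice cannot be read from these counts.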
